A study of Homo sapiens with 6 samples.

Results

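DDX and DHX genes encode the large family of RNA helicases that carry the DEAD or DEAH motif, and 49 of them were measured in VCaP cells after knockdown of PRMT5. Members were chosen by name alone, as genes whose single symbol in the platform annotation was DDX or DHX followed by a number and at most one of the letters A, B or X. They numbered 33 DDX and 16 DHX genes out of 19775 genes with a probe set of a single symbol, and each was followed on its brightest probe set. Helicases whose probe sets carried several symbols, DDX39B among them, were not counted as members.

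The study used 6 one-colour arrays of VCaP, an established human prostate cancer cell line, in 3 groups of 2. Cells carried PRMT5 shRNA 1, PRMT5 shRNA 2 or a non-targeting control hairpin (NTC), and all of them, controls included, received doxycycline at 100 ng/ml for 3 days. The 2 knockdown groups differ in the hairpin alone, as far as the labels say. No uninduced cells and no clone numbers are given, and whether replicates were separate cultures is not stated, so a p-value covers the spread between arrays of a group, which may be technical.

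DEAD-box proteins bind RNA through a pair of joined domains and use ATP to pry short duplexes apart locally, whereas DEAH-box proteins pull along an RNA strand and are often switched on by partners with a G-patch. Members take part in spliceosome rearrangement, ribosome assembly, mRNA export, translation and decay, and sensing of viral RNA. PRMT5 is an arginine methyltransferase that symmetrically dimethylates Sm proteins, which the SMN complex then loads onto small nuclear RNAs. The member DDX20, also called Gemin3, is a subunit of the SMN complex, and the RGG tail of DDX5 is a reported substrate of PRMT5. The arrays measured mRNA and say nothing of methylation of these proteins.

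PRMT5 itself was at 136 and 134 with PRMT5 shRNA 1 and at 291 and 321 with PRMT5 shRNA 2, against 809.8 and 880.5 with NTC (probe set intensity, linear scale). That left 15.9% and 36.2% of the control signal with the first and the second hairpin. All 9 prostate luminal and ERG markers measured were above the filter in every group, and they summed to 13110 to 13620 with PRMT5 shRNA 1 and 13210 to 14310 with PRMT5 shRNA 2, against 11520 to 11980 with NTC, without overlap between knockdown and control arrays. Of 10 fibroblast, endothelial, leukocyte and basal markers, 2 passed the filter (COL1A1 and KRT14), and the 10 summed to 87.9 to 103 with PRMT5 shRNA 1 and 112 to 138 with PRMT5 shRNA 2, against 102 to 123 with NTC. The lowest of them averaged 0.4, 0.65 and 0.2. Arrays correlated at 0.996 to 0.997 within a group and at 0.976 to 0.991 between groups.

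Of the 49 members, 45 passed a filter that asked for the array's median intensity in at least 2 of 6 arrays, and each of the 45 reached the median on all 6, so none passed through 1 group only. The other 4 had intensities between 0.4 and 11.3 on every array, under the array medians of 14.8 to 16.4. They were the germ cell helicases DDX4 (vasa), DDX43 and DDX53 and the RNA sensor DHX58 (LGP2). No fold change is given for them.

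The main comparison asked which helicase mRNAs differed after PRMT5 knockdown, with both hairpins averaged. In all, 15 of the 45 tested members fell and 0 rose (limma, Benjamini-Hochberg adjusted p under 0.05 over all 12413 genes). The share called in either direction, 33.3%, lay near the 32.4% of all genes called. Its direction differed from the background, as 33.3% of members against 17.0% of all genes were lower, and 0 members against 15.4% of all genes were higher. At an unadjusted p under 0.05, 20 members were lower and 1 was higher, but the share of all genes at that threshold was not computed. The absence of higher members depended on the setting: with the mean over probe sets, 15 were lower and 2 higher. On the brightest probe set, 1 member was called higher when 1 rather than 16 was added to the intensities (15 lower). The same count was higher with quantile normalization and with arrays centred on their medians (14 lower in each). The median log2 difference was -0.13 over tested members and -0.01 over all genes. No member's averaged difference was past 0.5 in size, so the falls were small. In the plot of cumulative shares, the members' curve lies left of the curve of all genes over most of its course, but holds none of the large changes at either end.

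**Figure D1:**
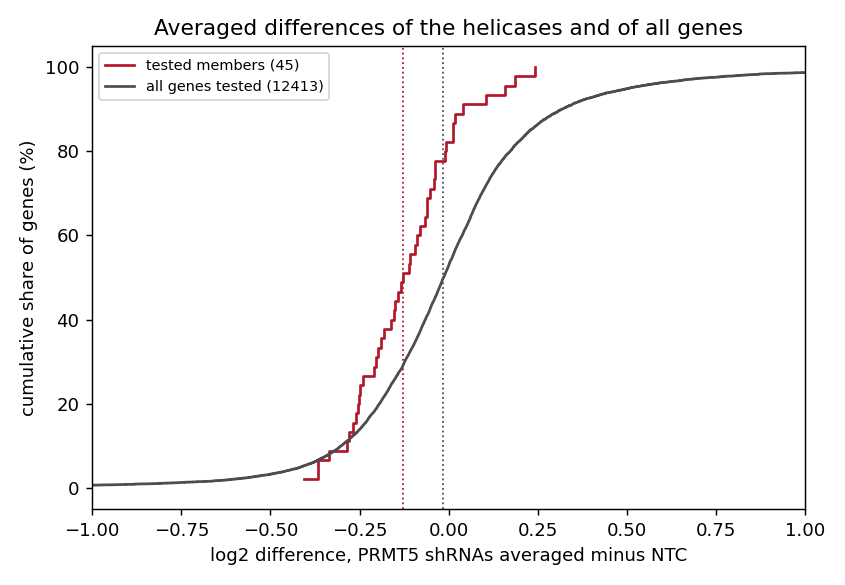
Cumulative share of genes (percent, vertical axis) by log2 difference of both PRMT5 hairpins averaged minus NTC on the log2(intensity + 16) scale (horizontal axis, drawn from -1 to 1), for the 45 tested members and for all 12413 genes; dotted lines mark the medians, -0.13 and -0.01. The members range from -0.41 to 0.24.

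In all 15 called members the 4 knockdown arrays lay below both control arrays. The same held for 19 of 45 tested members (42.2%), against 20.5% of all genes, while 1 member, DDX60, had all 4 above (18.7% of all genes). The fits without NTC replicate 1, NTC replicate 2 or PRMT5 shRNA 1 replicate 2 called fewer members and fewer of all genes. The relative loss was larger among the members. Without NTC replicate 2, the share of members called lower no longer exceeded that of all genes. In these fits, in the same order, the median log2 difference was -0.15, -0.12 and -0.12 over tested members. Over all genes it was -0.02, -0.01 and -0.01. DDX11 and DHX30 were the members called in both of the fits that leave out a control array. With both hairpins taken as 1 group, whose spread then includes the difference between them, DDX11 alone was called. That is 1 of 45 tested members, against 1501 of all 12413 genes, 611 of them lower.

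**Figure D2:**
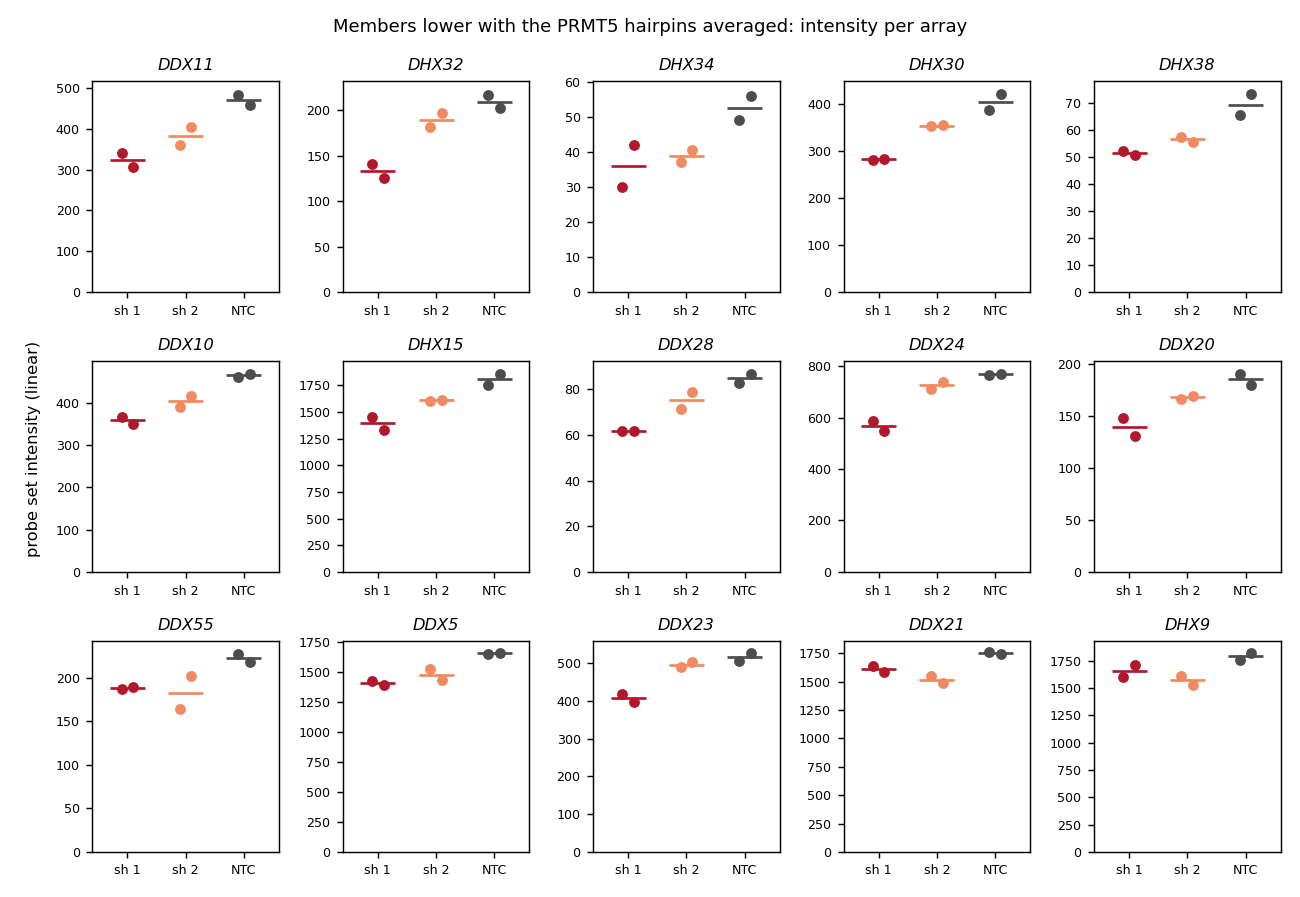
Probe set intensity on a linear scale from 0 (vertical axis) on each array for the 15 members lower with both PRMT5 hairpins averaged, by group (PRMT5 shRNA 1, PRMT5 shRNA 2, NTC); points are arrays and bars are means of 2. In each panel the 4 knockdown arrays sit below both NTC arrays, and in 12 of 15 the mean log2 value is lower with PRMT5 shRNA 1 than with PRMT5 shRNA 2.

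Promoter windows of 4 members that fell and hold a match to the ETS letters, and of DDX25, the member that differed most between hairpins, are shown as examples. The windows run from 250 bases before to 50 after the RefSeq start, on the gene's strand (GRCh38.p14), with capitals marking the ETS letters CCGGAAGT and the E-box CACGTG on either strand.
DHX30, chr3:47802888-47803187, plus strand, 1 ETS match: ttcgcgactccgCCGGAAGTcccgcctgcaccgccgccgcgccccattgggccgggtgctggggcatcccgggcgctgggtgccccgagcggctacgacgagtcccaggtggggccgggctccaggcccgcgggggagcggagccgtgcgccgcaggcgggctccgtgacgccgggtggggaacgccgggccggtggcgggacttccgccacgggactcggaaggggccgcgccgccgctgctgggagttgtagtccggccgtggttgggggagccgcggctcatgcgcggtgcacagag
DHX34, chr19:47349065-47349364, plus strand, an E-box and then an ETS match: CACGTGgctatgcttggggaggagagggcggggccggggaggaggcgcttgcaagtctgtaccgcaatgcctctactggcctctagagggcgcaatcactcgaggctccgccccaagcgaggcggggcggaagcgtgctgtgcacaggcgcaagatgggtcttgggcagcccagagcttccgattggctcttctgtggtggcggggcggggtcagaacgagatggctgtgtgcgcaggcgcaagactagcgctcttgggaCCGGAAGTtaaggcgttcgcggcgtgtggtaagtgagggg
DDX5, chr17:64506589-64506888, minus strand, an ETS match on the other strand and then an E-box: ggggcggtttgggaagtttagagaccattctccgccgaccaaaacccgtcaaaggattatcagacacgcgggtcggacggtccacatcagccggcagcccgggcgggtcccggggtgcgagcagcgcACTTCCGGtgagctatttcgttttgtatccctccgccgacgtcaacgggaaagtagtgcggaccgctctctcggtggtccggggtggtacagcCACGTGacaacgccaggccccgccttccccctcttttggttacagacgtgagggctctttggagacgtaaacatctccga
DDX21, chr10:68955920-68956219, plus strand, 1 ETS match: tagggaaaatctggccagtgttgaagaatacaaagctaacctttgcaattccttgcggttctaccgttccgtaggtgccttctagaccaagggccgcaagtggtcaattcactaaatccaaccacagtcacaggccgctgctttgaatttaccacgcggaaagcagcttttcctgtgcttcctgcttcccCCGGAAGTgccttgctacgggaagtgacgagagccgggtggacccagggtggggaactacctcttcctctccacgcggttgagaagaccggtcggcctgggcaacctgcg
DDX25, chr11:125904258-125904557, plus strand, an E-box and no ETS match: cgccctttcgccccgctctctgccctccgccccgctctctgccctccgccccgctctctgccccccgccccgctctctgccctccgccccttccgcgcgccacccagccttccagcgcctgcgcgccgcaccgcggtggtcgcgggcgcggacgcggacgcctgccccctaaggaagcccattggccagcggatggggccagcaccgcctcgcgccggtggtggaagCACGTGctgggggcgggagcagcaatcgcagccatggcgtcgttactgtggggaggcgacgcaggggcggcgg

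Windows were found for 45 of the 49 members, 60 in all, so some genes have several. The ETS letters were in 16.7% of the members' windows, 5.33% of windows of protein-coding genes and 4.14% of all 35116 windows. The E-box was in 16.7%, 8.34% and 7.26% of the same windows, the GC box GGGCGG in 61.7%, 56.3% and 45.0%, and TATAAA in 5.0%, 9.47% and 11.5%. None of these motifs contains another. Neither set of background windows was limited to genes that passed the intensity filter, as most members did. The ETS letters were present for 5 of the 15 members that fell (DDX5, DDX11, DDX21, DHX30 and DHX34) and for 5 of the 27 other tested ones with a window. The E-box was present for 4 of the 15 and 6 of the 27. A match is a run of letters and no evidence of binding. Motifs of NRF1 and YY1 and a CG palindrome were searched as well, and their shares are not given because they depended on how long a form of each motif was used.

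Of 11 spliceosome helicases tested, 4 fell and 7 did not pass, with a median log2 difference of -0.11. All of these calls were lower, 36.4% of the list, against 17.0% of all genes lower and 32.4% called in either direction. DHX15, the human PRP43 that takes spliceosomes apart, had 1458 and 1329 with PRMT5 shRNA 1 and 1605 and 1615 with PRMT5 shRNA 2, against 1757 and 1859 with NTC. All 4 knockdown arrays were below the controls, with the first hairpin lowest, and the averaged log2 difference was -0.27 ± 0.05 (SE; limma, adjusted p = 0.00287). Its second probe set also fell (-0.17, limma over probe sets, adjusted p = 0.030). DHX38, the PRP16 of the second splicing step, gave 52.3 and 50.6 with PRMT5 shRNA 1 and 57.4 and 55.5 with PRMT5 shRNA 2, against 65.4 and 73.2 with NTC (-0.29 ± 0.09, adjusted p = 0.0295). DDX23, the PRP28 of the U4/U6.U5 particle, gave 419 and 399 with PRMT5 shRNA 1 and 492 and 502 with PRMT5 shRNA 2, against 508 and 527 with NTC (-0.19 ± 0.06, adjusted p = 0.0280). Its fall lay mainly in the arrays of the first hairpin. The other kept probe set of DDX23 did not pass (-0.13, limma over probe sets, adjusted p = 0.135). The DHX38 call was lost in 6 of 15 alternative settings.

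DDX5, or p68, is both a splicing factor and a coactivator of transcription. It had 1428 and 1394 with PRMT5 shRNA 1 and 1529 and 1434 with PRMT5 shRNA 2, against 1654 and 1666 with NTC. Every knockdown array was lower, by -0.20 ± 0.05 on the log2 scale (SE; limma, adjusted p = 0.00991), with -0.23 for the first and -0.16 for the second hairpin. Its close paralog DDX17 gave 2601 and 2742 with PRMT5 shRNA 1 and 2691 and 2559.6 with PRMT5 shRNA 2, against 2596 and 2652 with NTC. The groups of DDX17 overlapped, and its difference was 0.01 ± 0.05 (adjusted p = 0.858). The other members of the list that did not pass were the PRP2, PRP5 and PRP22 homologs DHX16 (-0.11), DDX46 (-0.01) and DHX8 (-0.07), the SF3b-associated DDX42 (0.02), DDX41 (-0.08) and DHX35 (-0.18).

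Of 14 ribosome assembly helicases tested, 4 fell and 10 did not pass, with a median of -0.14. All of these calls were lower, 28.6% of the list, against 17.0% of all genes lower and 32.4% called in either direction. With PRMT5 shRNA 2 alone 1 was higher and 1 lower (14.3% called, against 21.4% of all genes). DDX24, a nucleolar protein of large subunit assembly, had 588 and 546 with PRMT5 shRNA 1 and 711 and 739.8 with PRMT5 shRNA 2, against 765 and 770.0 with NTC. The first hairpin gave values well below the others, and the averaged difference was -0.25 ± 0.06 (SE; limma, adjusted p = 0.00569). With the mean over its probe sets the difference of DDX24 was -0.05 and did not pass (adjusted p = 0.426). DDX10, of small subunit processing, had 367 and 350.5 with PRMT5 shRNA 1 and 390.3 and 417 with PRMT5 shRNA 2, against 460.1 and 469 with NTC (-0.28 ± 0.06, adjusted p = 0.00569). DDX21, which acts in ribosomal RNA synthesis and processing, had 1637 and 1588 with PRMT5 shRNA 1 and 1547 and 1484 with PRMT5 shRNA 2, against 1758 and 1741 with NTC (-0.16 ± 0.05, adjusted p = 0.0218). Here the second hairpin was the lower of the pair.

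DDX55, of large subunit assembly, had 187 and 189.7 with PRMT5 shRNA 1 and 164 and 202 with PRMT5 shRNA 2, against 228 and 218 with NTC. It fell by 0.25 ± 0.09 on the averaged log2 scale (limma, adjusted p = 0.0472), and neither hairpin alone passed. The DDX55 call was lost in 9 of 15 alternative settings. The DDX21 paralog DDX50 did not pass (0.01 ± 0.05), and neither did DHX37 (-0.24 ± 0.14), DDX54 (-0.21), DDX51 (-0.14), DDX56 (-0.13), DHX33 (-0.13), DDX49 (-0.11), DDX27 (-0.09) or DDX52 (-0.04). DDX31 had the only averaged difference above 0.1 of this list (0.16 ± 0.09, adjusted p = 0.182).

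A mixed list of 4 held DDX20 of the SMN complex, DHX9, DDX1 and the DNA helicase DDX11, and DDX20, DHX9 and DDX11 fell. Among all genes 17.0% were lower and 32.4% were called in either direction. DDX20 had 148 and 131 with PRMT5 shRNA 1 and 166 and 169.5 with PRMT5 shRNA 2, against 190.3 and 180.2 with NTC. All 4 knockdown arrays were lower (-0.25 ± 0.08 SE; limma, adjusted p = 0.0294), and its other probe set fell as well (-0.33). Its call was lost when NTC replicate 1 or NTC replicate 2 was left out. DDX11, which acts in sister chromatid cohesion, had 341 and 306 with PRMT5 shRNA 1 and 359.8 and 405 with PRMT5 shRNA 2, against 484 and 457 with NTC. This was the largest averaged fall among the members, at -0.41 ± 0.07 (adjusted p = 0.00165), and it passed in each of the 14 alternative settings in which it was tested. DDX11 has near-identical copies such as DDX12P, with which its _x_at and _s_at probe sets may share signal, so its level is uncertain.

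DHX9, also called RNA helicase A, had 1601 and 1709.7 with PRMT5 shRNA 1 and 1609 and 1527 with PRMT5 shRNA 2, against 1757 and 1823 with NTC. It fell by 0.15 ± 0.05 on the averaged log2 scale (adjusted p = 0.0404). DDX1, a subunit of the tRNA ligase complex, did not pass (-0.09 ± 0.06). Both mitochondrial members fell, where 17.0% of all genes were lower. DHX30, needed for mitochondrial ribosome assembly, had 282 and 284 with PRMT5 shRNA 1 and 354 and 356 with PRMT5 shRNA 2, against 388 and 421 with NTC. The groups stood apart in that order, with a difference of -0.34 ± 0.06 (adjusted p = 0.00235). DDX28, which acts at the mitochondrial large subunit, had 61.8 and 61.5 with PRMT5 shRNA 1 and 71.5 and 78.9 with PRMT5 shRNA 2, against 82.9 and 86.7 with NTC (-0.26 ± 0.09, adjusted p = 0.0374). With the mean over probe sets DHX30 was at -0.16 (limma, adjusted p = 0.0447). There DHX9 (-0.09, adjusted p = 0.192) and DDX28 (-0.19, adjusted p = 0.0860) did not pass. The DHX9 call was lost in 9 of 14 alternative settings and that of DDX28 in 9 of 15.

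Helicases of mRNA export, translation and decay had 1 of 8 lower (12.5%, against 17.0% of all genes), 7 not passing and a median of -0.06. DHX34, of nonsense-mediated decay, had 30.1 and 42.0 with PRMT5 shRNA 1 and 37.2 and 40.6 with PRMT5 shRNA 2, against 49.3 and 56.2 with NTC. These are dim values, and the difference of -0.37 ± 0.11 (SE; limma, adjusted p = 0.0277) lost its call when NTC replicate 1 or NTC replicate 2 was left out. DDX3X, of translation initiation, had 2460.5 and 2595 with PRMT5 shRNA 1 and 2358 and 2349 with PRMT5 shRNA 2, against 2587 and 2425 with NTC (-0.04 ± 0.05, adjusted p = 0.565). DDX6, of translational repression and decapping, had 1181 and 1214 with PRMT5 shRNA 1 and 1322 and 1211 with PRMT5 shRNA 2, against 1251 and 1302 with NTC (-0.05 ± 0.05, adjusted p = 0.492). On these brightest probe sets of both genes, knockdown and control arrays overlapped. The export factor DDX39A did not pass although all 4 of its knockdown arrays were lower (-0.15 ± 0.05, adjusted p = 0.0535), and the nuclear pore helicases DDX19A and DDX19B were both at -0.06. The G-quadruplex resolvase DHX36 was at -0.01 and the scanning factor DHX29 at 0.04.

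Where 17.0% of all genes were lower and 32.4% were called in either direction, 1 of the 4 tested members with no list fell, DHX32. It had 141 and 126 with PRMT5 shRNA 1 and 181 and 197 with PRMT5 shRNA 2, against 216 and 202 with NTC, a difference of -0.37 ± 0.08 (SE; limma, adjusted p = 0.00524). DHX57 (-0.20), DDX59 (-0.04) and DHX40 (0.11) did not pass. DDX60, an interferon-induced antiviral protein, had 114 and 121 with PRMT5 shRNA 1 and 133 and 156 with PRMT5 shRNA 2, against 106.5 and 108.5 with NTC. All 4 knockdown arrays were higher, and the averaged difference of 0.24 ± 0.09 missed the threshold (adjusted p = 0.0502).

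Each hairpin was then set against NTC, as 2 comparisons that share the control arrays. With PRMT5 shRNA 1, 13 of 45 members fell (28.9%, against 23.1% of all genes) and 0 rose (16.2% of all genes), where 39.3% of all genes were called in either direction. At an unadjusted p under 0.05 these counts were 19 and 0, again with no share of all genes computed. With the mean over probe sets 15 were lower and 4 higher, so the absence of higher members rests on the brightest probe set. The members were DDX5, DDX10, DDX11, DDX20, DDX23, DDX24, DDX28, DDX41, DHX15, DHX30, DHX32, DHX34 and DHX38. DHX32 fell the most, to 63.6% of the control mean (log2 difference -0.60 ± 0.09, SE), followed by DDX11 (68.8%, -0.52 ± 0.08) and DHX30 (70.0%, -0.49 ± 0.07). With PRMT5 shRNA 2, 3 members fell (6.67%, against 8.39% of all genes) and 3 rose (6.67%, against 13.1%), where 21.4% of all genes were called. Those that fell were DDX11 (-0.29 ± 0.08), DDX21 (-0.21 ± 0.05) and DHX9 (-0.19 ± 0.06). Those that rose were DDX25, DDX60 and DDX31. At an unadjusted p under 0.05, 13 members were lower and 5 higher with PRMT5 shRNA 2, with no share of all genes computed. Leaving out NTC replicate 1 or NTC replicate 2 gave fewer called members with this hairpin, and fewer called among all genes. The relative loss was larger among the members. Fewer members and fewer of all genes were also called with the first hairpin without PRMT5 shRNA 1 replicate 2 or NTC replicate 2.

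**Figure D3:**
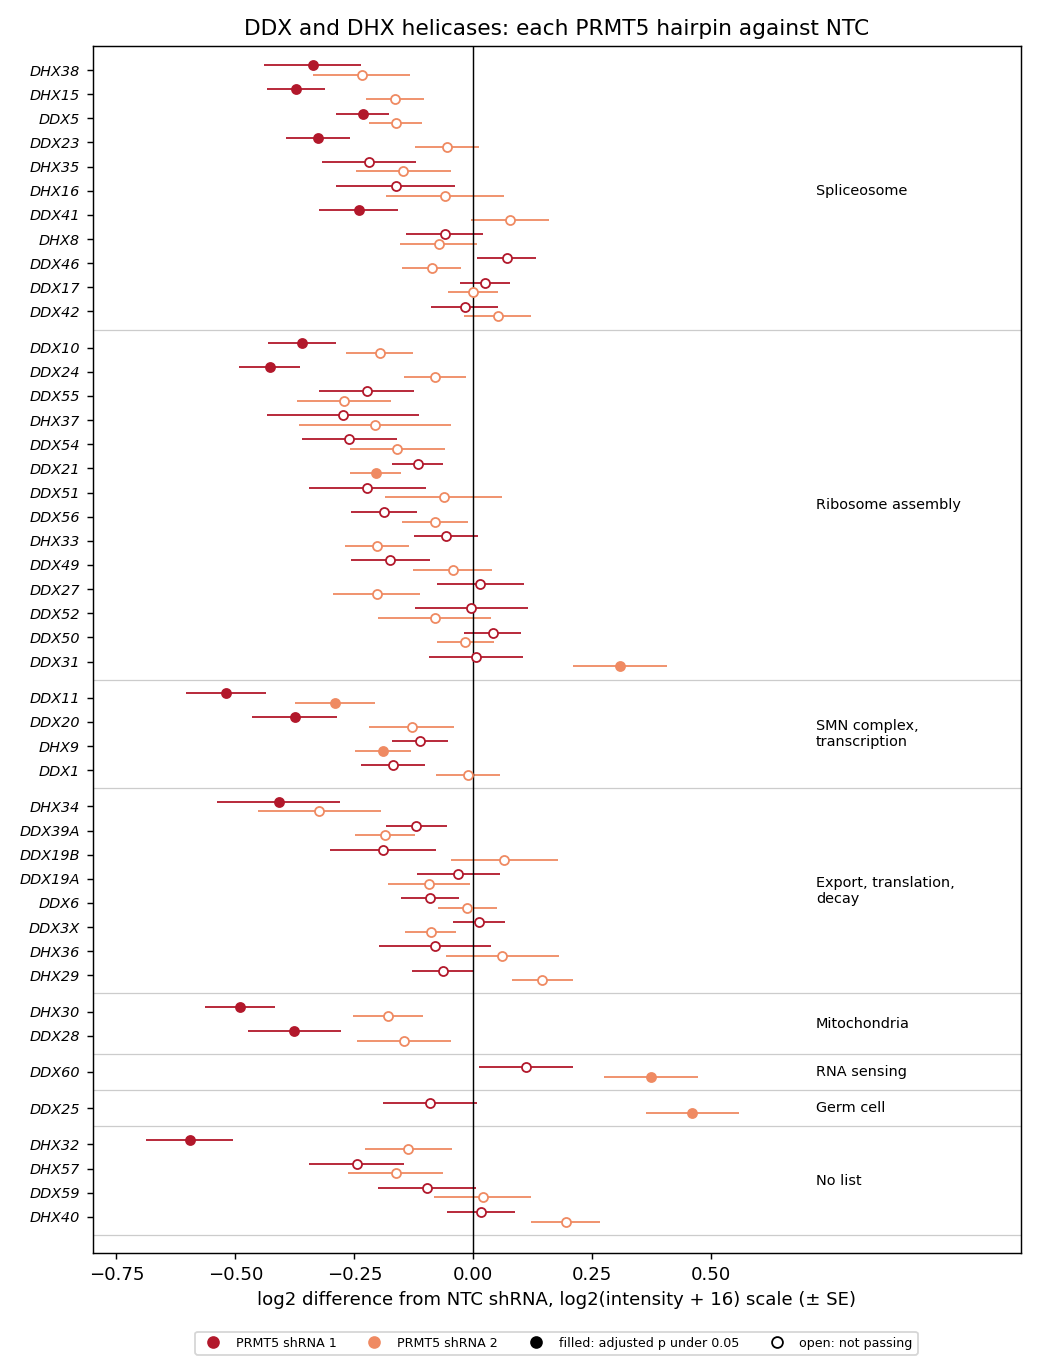
Log2 difference from NTC with SE (horizontal axis, log2(intensity + 16) scale) for the 45 tested members, grouped by role, with PRMT5 shRNA 1 in dark red and PRMT5 shRNA 2 in orange; filled points passed an adjusted p of 0.05. The 13 filled points of PRMT5 shRNA 1 all lie left of 0, and the 6 of PRMT5 shRNA 2 lie on both sides.

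The difference between hairpins was tested directly. Of 45 members, 9 were higher with PRMT5 shRNA 2 than with PRMT5 shRNA 1 (20.0%, against 18.3% of all genes). Called lower were 0 members, against 7.38% of all genes, and 25.7% of all genes were called in either direction. At an unadjusted p under 0.05 the member counts were 17 and 2, with no share of all genes computed. With the mean over probe sets 7 members were higher and 5 lower, so the single direction too rests on the brightest probe set. Fewer members, and fewer of all genes, were called without PRMT5 shRNA 1 replicate 1, without its replicate 2 and without PRMT5 shRNA 2 replicate 2. In the last of these fits a member was called lower. With arrays centred on their medians, 84.2% of all called genes were higher with PRMT5 shRNA 2, against 71.3% as deposited, and the median over all genes was 0.11 rather than 0.06. The sign of this difference was positive for 71.1% of tested members and 60.5% of all genes. PRMT5 itself was higher with shRNA 2 by 1.09 ± 0.08 on the log2 scale. ACTB signal at the 3' end over that at the 5' end, a measure of RNA quality, also moved with the hairpin, and its part in the result was not tested. The ACTB ratio was 5.36 ± 0.511 with PRMT5 shRNA 2 and 3.69 ± 0.279 for PRMT5 shRNA 1, against 4.73 ± 0.209 with NTC (SD, n = 2 each). That of GAPDH was 1.22 with either hairpin, against 1.29 with NTC.

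DDX25, a testis helicase with a role in export and translation in germ cells, differed most among the members. It had 83.0 and 85.3 with PRMT5 shRNA 2 and 53.6 and 51.0 with PRMT5 shRNA 1, against 54.7 and 58.9 with NTC. Only the arrays of PRMT5 shRNA 2 stood apart, by 0.55 ± 0.10 from the other hairpin (limma, adjusted p = 0.00358) and 0.46 ± 0.10 from NTC. DDX31, a nucleolar helicase, had 391 and 340.5 with PRMT5 shRNA 2 and 276 and 311 with PRMT5 shRNA 1, against 314 and 271 with NTC (0.30 ± 0.10 between hairpins, adjusted p = 0.0444). This call was lost in 6 of 14 alternative settings, and the other kept probe set of DDX31 gave -0.25 between hairpins (adjusted p = 0.165). DDX41, of splicing and DNA sensing, had 229.6 and 248 with PRMT5 shRNA 2 and 189 and 188 with PRMT5 shRNA 1, against 218 and 233 with NTC (0.32 ± 0.08, adjusted p = 0.0183). It was lower with the first hairpin alone. DHX29, which helps ribosomes scan structured leaders, had 909.9 and 999.5 with PRMT5 shRNA 2 and 815 and 831 with PRMT5 shRNA 1, against 862 and 859.8 with NTC (0.21 ± 0.06, adjusted p = 0.0346). The DHX29 call was lost in 8 of 14 alternative settings. The other 5 were members described above that fell on average, namely DHX32 (0.46 ± 0.09), DDX24 (0.35 ± 0.06), DHX30 (0.31 ± 0.07), DDX23 (0.27 ± 0.07) and DHX15 (0.21 ± 0.06).

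Probe sets of 1 gene did not always move together. Of the 15 members that fell, 9 had other kept probe sets, 16 in all, and 12 of the 16 had the same sign. With both hairpins averaged, 0 of 31 members with several kept probe sets had probe sets called in opposite directions, against 1.18% of all such genes. In the comparison of PRMT5 shRNA 1 with NTC, 2 of 31 members did (DDX24 and DHX30), against 4.13%. DHX30 fell on 3 probe sets with that hairpin, by -0.49, -0.72 and -0.51, and rose on the other two, by 0.27 and 0.31 (limma over probe sets, adjusted p of 0.0261 and 0.0196 for the rises). The second probe set of DDX24 averaged 152 with PRMT5 shRNA 1, against 120.2 with NTC (0.30 ± 0.09, adjusted p = 0.0213). The files do not say which transcripts these probe sets read.

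Between the hairpins, the opposite calls were those of DDX24 and DHX29, 2 of 31 members against 3.13% of all genes. The dimmer probe set of DHX29 had 64.8 with PRMT5 shRNA 2 and 83.2 with PRMT5 shRNA 1 (means of 2), against 48.1 with NTC. It rose with both hairpins averaged (0.48 ± 0.09, adjusted p = 0.00178), while the brighter one did not pass. The dimmest kept probe set of DHX9 had 89.9 with PRMT5 shRNA 2 and 157 with PRMT5 shRNA 1, against 113 with NTC, and differed by -0.71 ± 0.09 between hairpins (adjusted p = 0.000703), where the brightest gave -0.08 ± 0.06. DDX3X, which did not pass on its brightest probe set, was lower with PRMT5 shRNA 2 than with PRMT5 shRNA 1 on its other kept ones, by -0.30, -0.54 and -0.59 (adjusted p of 0.0284, 0.00116 and 0.00308). The dimmer pair of these rose with PRMT5 shRNA 1 against NTC, by 0.34 and 0.44 (adjusted p of 0.00613 and 0.00712). DDX6 rose on its dimmest kept probe set (0.28 ± 0.09, adjusted p = 0.0314) and not on its brightest. DDX52 fell on its second (-0.30 ± 0.07, adjusted p = 0.0103) and DHX33 on its second (-0.27 ± 0.06, adjusted p = 0.0103), where the brightest did not pass.

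**Figure D4:**
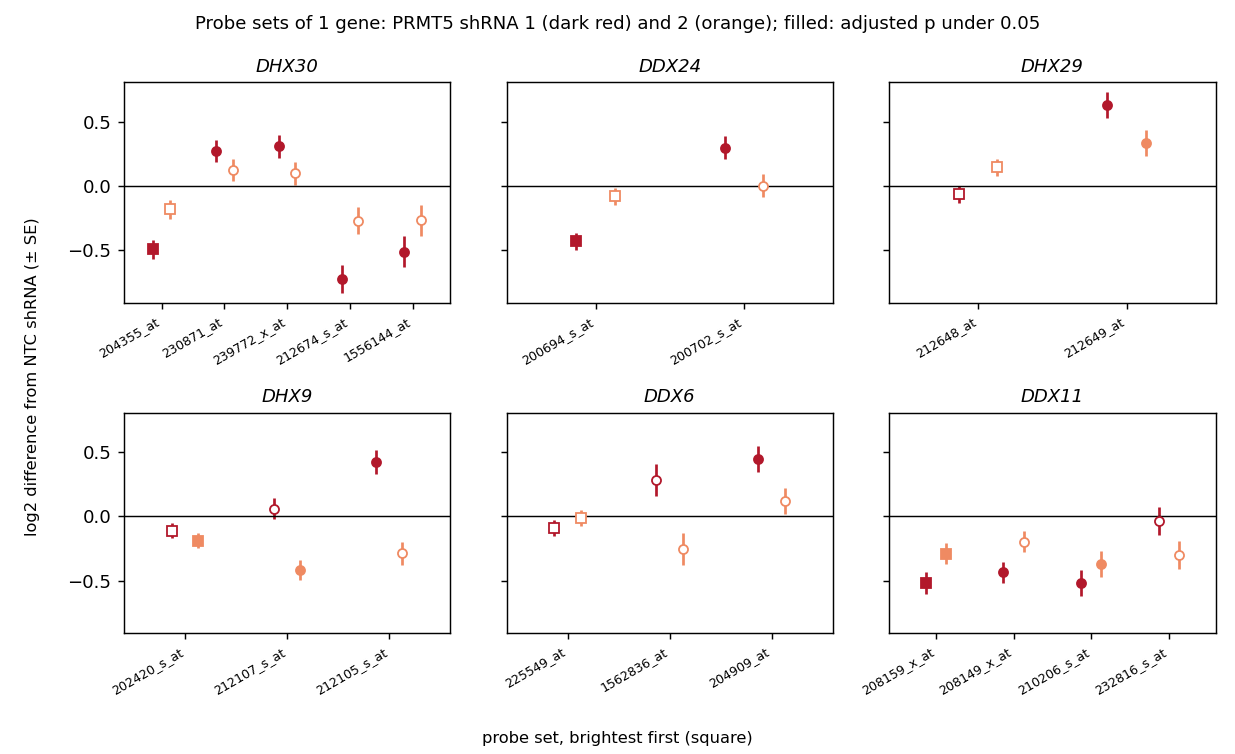
Log2 difference from NTC with SE (vertical axis) for each kept probe set of DHX30, DDX24, DHX29, DHX9, DDX6 and DDX11, brightest first (square), with PRMT5 shRNA 1 in dark red and PRMT5 shRNA 2 in orange; filled points passed an adjusted p of 0.05. These genes were chosen after their values were seen; DHX30 and DDX24 have filled points on both sides of 0 with PRMT5 shRNA 1, and the 4 probe sets of DDX11 all lie below 0.

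Genes close to the family were read from lists. Of 14 tested helicases with other names, 5 fell and 0 rose with both hairpins averaged. This was 35.7%, against 17.0% of all genes lower and 32.4% called in either direction. The median was -0.01, with 7 negative and 7 positive differences. Those that fell were HELZ (-0.33 ± 0.08, SE), the silencing factor MOV10 (-0.27 ± 0.08), the intron-binding AQR (-0.22 ± 0.06), SUPV3L1 of mitochondrial RNA decay and ASCC3. EIF4A3 of the exon junction complex (0.01), MTREX of the nuclear exosome (0.03) and the RNA sensors IFIH1 (0.01) and RIGI (0.08) did not pass. Of 29 tested partners and activators, 8 fell and 0 rose, with a median of -0.07. This was 27.6%, against 17.0% of all genes lower and 32.4% called in either direction. With PRMT5 shRNA 1 alone 34.5% were called, against 39.3% of all genes. Of these 8 fell and 2 rose, the export adaptor ALYREF (0.48 ± 0.10, adjusted p = 0.00268) and SARNP (0.24 ± 0.07, adjusted p = 0.0211). GEMIN4, which binds DDX20 in the SMN complex, had 359 and 327 with PRMT5 shRNA 1 and 463 and 528 with PRMT5 shRNA 2, against 529.7 and 542 with NTC (-0.37 ± 0.07; limma, adjusted p = 0.00249). GEMIN5 had 302 and 298 with PRMT5 shRNA 1 and 258 and 306 with PRMT5 shRNA 2, against 376 and 372 with NTC (-0.35 ± 0.07, adjusted p = 0.0049). THOC1, of the export complex that works with UAP56-type helicases, fell by 0.28 ± 0.06 (adjusted p = 0.00703).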

How the data were processed

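The authors deposited 1 linear intensity per probe set and array, from MAS5 according to the submitters' processing notes, whose version and further steps the sources used here do not state. Each of the 6 arrays had a mean of 150 after trimming 2% at each end, so none was rescaled, and 0 columns matched no sample. Of 54675 probe sets, 41091 had 1 symbol in the platform annotation, 1801 several and 11721 none. Those at or above the array median on at least 2 arrays were kept, with the brightest per gene (12413 genes). Values were fitted as log2(intensity + 16) with limma 3.58.1 in R 4.3.3 (lmFit, eBayes with trend, 1 coefficient per group, 3 residual degrees of freedom, prior 7.89), two-sided, adjusted by Benjamini-Hochberg over all genes; the fit was tested on simulated data. The number of arrays limits the precision; the median replicate SD was 0.08 on the log2 scale. Intensities are not compared between genes. Members and lists were chosen with earlier results of these data known. Array values were given by rule for the called members with the 12 lowest and 12 highest averaged differences and members differing between hairpins. The rule also named DDX3X, DDX5, DDX6, DDX20 and DHX9. Those of DDX17 and DDX60 were added outside this rule. The alternatives were other pseudocounts, scalings, filters and probe set rules, a replicate block, joined hairpins, and leaving out each array. Protein sequences were not used here.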

Additional observations from a re-analysis of the deposited data

Results flagged for a closer look

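The difference between the hairpins was tested for each member, and 9 differed at limma's adjusted p under 0.05, all higher with PRMT5 shRNA 2 than with PRMT5 shRNA 1. On the log2 scale these differences were 0.55 for DDX25, 0.46 for DHX32, 0.35 for DDX24, 0.32 for DDX41, 0.31 for DHX30, 0.30 for DDX31, 0.27 for DDX23 and 0.21 each for DHX29 and DHX15. A share of 20.0% of members stands beside 18.3% of all genes. Of the 9, DDX25 alone passed in every alternative in which it was tested. Groups of 2 arrays are too small to look for single arrays that stand apart.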

How the results depend on the processing

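The number of members called with both hairpins averaged was 15 (4016 of all genes). It was 9 with no filter on dim probe sets (3424 of 19775 genes) and 1 with both hairpins as 1 group (1501). For PRMT5 shRNA 2 it was 6, with 3 under no filter, 3 without _x_at and _s_at probe sets (33 members left) and 11 with the mean over probe sets. For the difference between hairpins it was 9, and 16 with arrays centred on the median, which also moved the share of higher calls among all called genes to 84.2%, against 71.3%. Leaving out 1 array gave 3 to 15 members (averaged), 8 to 16 (PRMT5 shRNA 1), 1 to 7 (PRMT5 shRNA 2) and 2 to 10 (between hairpins). The number of all genes called changed in each of these fits too, and the cause of these changes was not tested. The sign between hairpins turned for DHX29 (-0.044) and, reaching a call, for DDX6 (-0.26) and DHX8 (0.26) with the mean over probe sets, and for DDX52 (0.30) and DHX36 (-0.54) without _x_at and _s_at probe sets. No averaged difference with a call turned sign in any setting run. A replicate block gave 12, 12, 5 and 8 members in the same order. Differences of replicate 1 minus replicate 2, taken gene by gene, correlated between the groups at -0.00448, -0.0902 and -0.176. None of these was positive, and the labels do not say that replicate numbers pair the samples. With the NTC numbers crossed, chosen after seeing the data, PRMT5 shRNA 2 gave 11 members.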
